A study of Mus musculus with 6 samples.

Results

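The leukocyte genes described here are 38 genes that mark white blood cells of the heart, read in RNA from a preparation of cardiac fibroblasts (CFs) from which blood lineage cells had been depleted. They were chosen by name, as 38 of the 49548 genes in the count table, and each symbol was found in 1 row. By role they comprise 9 pan-leukocyte genes, 19 myeloid genes, 8 lymphoid genes and 2 granulocyte genes. The comparison asked whether these transcripts differed between CharmeKO and wild-type (WT) native CFs, in 3 libraries of each genotype.

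All 6 libraries came from C57BL/6J mice at 5 weeks of age, and the study's methods give 3 hearts without saying plainly whether that number is for each genotype. The CharmeKO allele carries a polyadenylation signal inserted into the locus of Charme, a long non-coding RNA known from the muscle of the heart and skeleton, so the mutation is present in every cell of the mouse and not in fibroblasts alone. Hearts were digested enzymatically, red blood cells were lysed, and cells of the hematopoietic lineages were removed with antibody-coated magnetic beads, with no later sorting on a fibroblast marker. By flow cytometry the study checked that native CFs lacked the hematopoietic marker CD45 and the vascular marker CD309. It also checked that they carried the fibroblast markers CD90 and Sca1. A culture medium and fibronectin coating stand in the labels too, although by the study's methods native CFs were taken straight from the heart. The labels do not say which mouse gave which library, so that p-values measure the spread between these libraries.

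The libraries held 9595701 to 42101393 counts, and a count of 0 in a library allows up to 0.0705 to 0.323 CPM (counts scaled to the library total after TMM normalization), a limit of 3 counts that covers counting error only. Charme, the targeted gene, had 26, 15 and 4 counts in WT 1, 2 and 3 and 7, 0 and 0 counts in CharmeKO 1, 2 and 3. In CPM the groups did not overlap for Charme, with an adjusted p of 0.362 by edgeR's quasi-likelihood test. Charme passed the count filter, 10 counts in 2 libraries, only through WT libraries, so this difference was in part a condition of being tested. Fibroblast markers such as Dcn and Gsn summed to between 31011 and 39242 CPM over 10 genes, so that markers of the labelled cell type were present, and erythroid genes summed to between 24423 and 39250 CPM. By edgeR's quasi-likelihood test, which called 0.830% of all tested genes at an adjusted p below 0.05, 1 of the 7 erythroid genes was called. This was Slc4a1, the anion exchanger of red blood cells, at 17.8 to 34.1 CPM in WT and 5.55 to 9.45 CPM in CharmeKO (log2 fold change −1.82, adjusted p = 0.00555), and DESeq2 called 1 of the 7 as well. Cardiomyocyte markers summed to 295 to 374 CPM in WT and 423 to 637 CPM in CharmeKO, with 2 of 9 genes called higher in CharmeKO by edgeR, 5 of 9 called by DESeq2, which called 2.48% of all genes, and 7 of 9 at an unadjusted p below 0.05. Epicardial markers summed to 57.5 to 73.3 CPM in WT and 34.0 to 41.0 CPM in CharmeKO. Of the 5 genes, 1 was called lower by edgeR and 1 by DESeq2, Wt1 in both, and 2 were detected in all 6 libraries. Without Wt1 the sums were 4.91 to 19.7 CPM in WT and 0.629 to 8.75 CPM in CharmeKO, and the groups overlapped. Whether these other cells play a part in the values of the leukocyte genes was not tested.

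Leukocytes of the heart are mainly resident macrophages, with smaller numbers of B cells, T cells, natural killer (NK) cells, dendritic cells and neutrophils. CD45, the phosphatase encoded by Ptprc, lies on the surface of nearly all of them, whereas CD11b (Itgam) is found on myeloid cells, CD3 on T cells and CD79 with CD20 on B cells. Lineage depletion reagents for the mouse commonly combine antibodies to CD5, CD11b, the B cell form of CD45, Gr-1 and Ter-119, so that T cells, myeloid cells, B cells, granulocytes and erythroid cells are held back on the column.

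Leukocyte transcripts were present in every library, at a low level. The 38 genes together came to 178, 92.9 and 171 CPM in WT 1, 2 and 3 and to 159, 168 and 119 CPM in CharmeKO 1, 2 and 3. The means were 147 ± 47.3 CPM in WT and 149 ± 26.3 CPM in CharmeKO (SD, n = 3), a log2 ratio of 0.01, and the groups overlapped. WT 2 was the lowest library in this sum, and it was also the lowest in 16 of the 33 genes that could be tested. Without WT 2, the sums of WT 1 and WT 3 both lay above those of all 3 CharmeKO libraries. That held only with TMM scaling. Without it, WT 3 (166 CPM) lay below CharmeKO 1 (170 CPM) and CharmeKO 2 (174 CPM). In bulk RNA, fewer leukocytes and less RNA per leukocyte cannot be told apart. The plot of summed levels by library sets these genes beside the markers of the other cells.

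**Figure D1:**
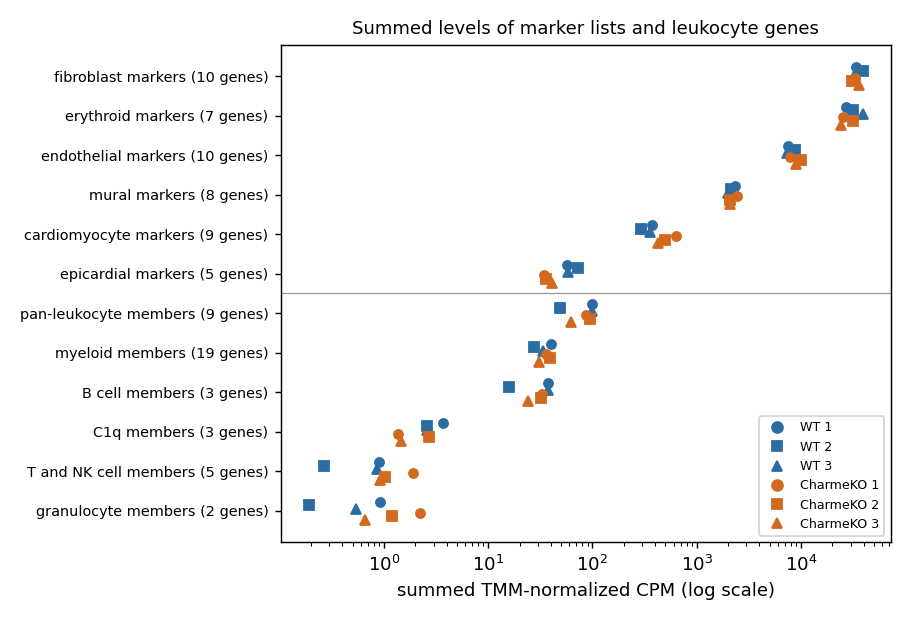
Summed TMM-normalized CPM (log scale) of marker lists of other cell types, above the line, and of groups of the leukocyte genes, below it, with 1 point per library (WT blue, CharmeKO orange, replicate number by shape). The leukocyte groups lie far below the fibroblast, erythroid and endothelial markers, and the B cell genes lie above the C1q genes and the T and NK cell genes in every library. The myeloid genes as a whole lie above the B cell genes in all libraries but WT 3.

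No leukocyte gene passed the test between genotypes. Of the 38 genes, 33 had at least 10 counts in at least 2 libraries and were tested, and 0 of them had an adjusted p below 0.05 in edgeR's quasi-likelihood test, in which 0.830% of the 15789 tested genes did. DESeq2 also called 0 of the 33, against 2.48% of all genes. At an unadjusted p below 0.05 there was 1 gene of 33 (3.03%), Gzma, against 12.8% of all tested genes. The 3 WT libraries did not overlap the 3 CharmeKO libraries for 3 of the 33 genes (9.09%), Gzma, C1qa and Csf1r, where 18.2% of all tested genes showed this. The share of leukocyte genes past each of these limits was thus not above the share over all genes. The leukocyte genes were, however, lower (median 1.86 CPM against 14.4) and less precise (median SE 0.42 against 0.18). Their smaller shares therefore do not show that they changed less than other genes. Of the 33, 19 had a positive and 14 a negative log2 fold change (CharmeKO over WT), with a median of 0.09, beside a median of 0.01 over all tested genes. The sign of that median turned when WT 2 (−0.05), CharmeKO 1 (−0.03) or CharmeKO 2 (−0.07) was left out.

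**Figure D2:**
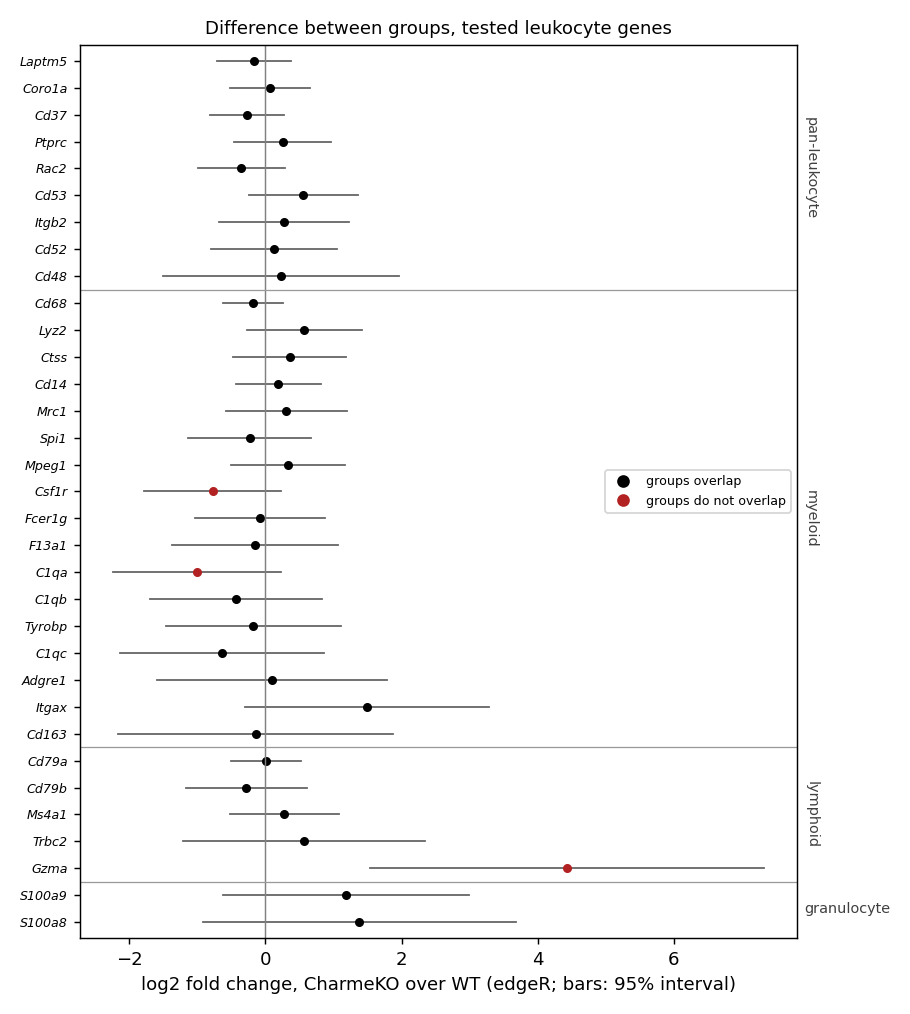
Log2 fold change of CharmeKO over WT for the 33 tested leukocyte genes by role (points) with the 95% interval of edgeR's quasi-likelihood test (bars). The intervals of all genes but Gzma include 0, and the 3 genes whose groups did not overlap are in red.

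The 9 pan-leukocyte genes held between 52.5% and 57.9% of the summed CPM of the 38 genes in each library. Ptprc, whose product CD45 opens signaling from antigen receptors by acting on Src family kinases, was at 10.3, 4.60 and 9.90 CPM in WT 1, 2 and 3 and at 10.2, 13.1 and 6.15 CPM in CharmeKO 1, 2 and 3. The groups overlapped, with CharmeKO 2 highest and WT 2 lowest, and the log2 fold change was 0.25 ± 0.33 (SE) with an adjusted p of 0.805 in edgeR's quasi-likelihood test. Per kilobase of exon, however, Coro1a was the most abundant of the 9 genes, at 9.41 CPM per kb on average over the 6 libraries, where Ptprc was at 1.76. Coro1a, which encodes an actin-binding coronin of hematopoietic cells, was at 23.8, 11.0 and 23.3 CPM in WT and at 20.5, 24.6 and 15.3 CPM in CharmeKO. Its log2 fold change was 0.06 ± 0.27 (SE, adjusted p = 0.947).

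Laptm5 followed at 8.85 CPM per kb, and encodes a lysosomal membrane protein that lowers the surface level of antigen receptors. It was at 30.1, 14.5 and 33.1 CPM in WT and at 22.1, 25.7 and 21.1 CPM in CharmeKO, with WT 3 highest and WT 2 lowest. The log2 fold change was −0.16 ± 0.25 (SE, adjusted p = 0.835), and the 95% interval of the fold ran from 0.614 to 1.30, the narrowest of the pan-leukocyte genes. Cd52, a small glycoprotein anchored to the surface of lymphocytes, was at 2.82, 1.22 and 3.77 CPM in WT and at 3.70, 2.50 and 2.07 CPM in CharmeKO. The groups overlapped here too, and the log2 fold change was 0.12 ± 0.42 (SE, adjusted p = 0.931).

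The largest fold change among the pan-leukocyte genes was that of Cd53, a tetraspanin of leukocyte membranes. It was at 6.23, 3.12 and 3.33 CPM in WT and at 6.43, 9.12 and 3.59 CPM in CharmeKO. WT 1 lay within the CharmeKO range, and the log2 fold change of 0.56 ± 0.36 (SE) did not pass the test (adjusted p = 0.565). The other members of the group were Cd37, a further tetraspanin, Cd48, a ligand of the SLAM family, Itgb2, the common beta chain of the leukocyte integrins, and Rac2, a small GTPase that serves the phagocyte oxidase and migration. Their mean levels ran from 0.382 CPM per kb for Cd48 to 3.25 CPM per kb for Cd37, and their log2 fold changes from −0.35 for Rac2 to 0.27 for Itgb2. In all, 6 of the 9 pan-leukocyte genes had a positive fold change and 3 a negative one.

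**Figure D3:**
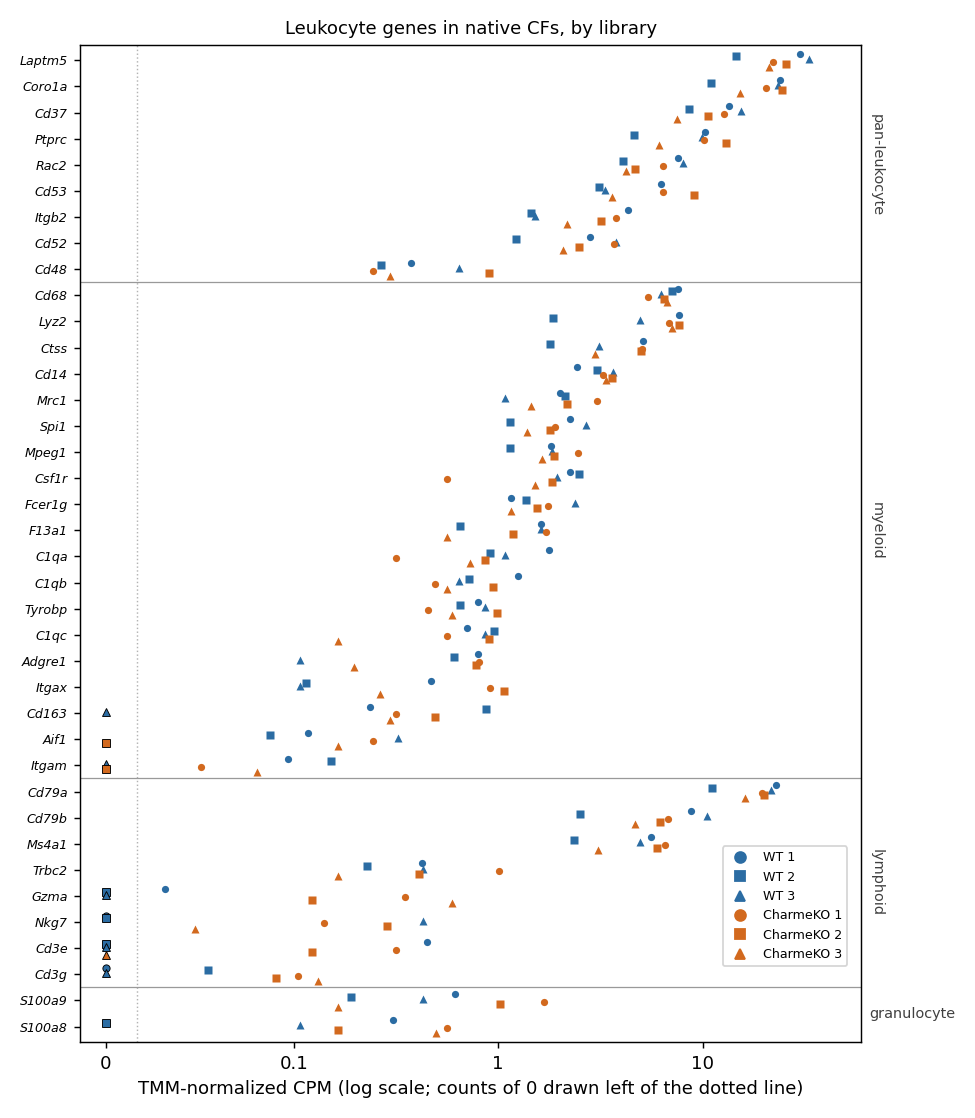
TMM-normalized CPM (log scale) of the 38 leukocyte genes in each of the 6 libraries, by role and in order of mean level (WT blue, CharmeKO orange, replicate number by shape), with counts of 0 drawn left of the dotted line. WT and CharmeKO points lie among each other for most genes, WT 2 is often at the low end, and the T and NK cell genes reach 0 in several libraries.

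Genes of macrophages and other myeloid cells made up between 19.5% and 29.9% of the summed leukocyte CPM. The most abundant per kilobase was Cd68, a lysosomal glycoprotein of macrophages, at 5.23 CPM per kb. It was at 7.57, 7.11 and 6.24 CPM in WT and at 5.41, 6.46 and 6.68 CPM in CharmeKO. The libraries differed little in Cd68, the groups overlapped, and WT 2 was not low. The log2 fold change was −0.18 ± 0.20 (SE, adjusted p = 0.769), with a 95% interval of the fold from 0.650 to 1.20, the narrowest of the myeloid genes.

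Lyz2, the lysozyme of macrophages and neutrophils, was at 7.64, 1.86 and 4.95 CPM in WT and at 6.88, 7.69 and 7.11 CPM in CharmeKO. The CharmeKO libraries lay close together and WT 1 lay among them, and the log2 fold change of 0.57 ± 0.39 (SE) had an adjusted p of 0.581. Ctss, cathepsin S, a protease that trims the invariant chain of MHC class II in antigen-presenting cells, was at 5.13, 1.79 and 3.12 CPM in WT and at 5.06, 4.99 and 2.99 CPM in CharmeKO. WT 1 was the highest and WT 2 the lowest library for Ctss, with a log2 fold change of 0.36 ± 0.38 (SE, adjusted p = 0.761). Spi1, which encodes PU.1, the transcription factor that sets up the myeloid and B cell programs, was at 2.23, 1.14 and 2.69 CPM in WT and at 1.89, 1.80 and 1.38 CPM in CharmeKO. The CharmeKO values all lay within the WT range, and the log2 fold change was −0.23 ± 0.41 (SE, adjusted p = 0.865).

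Genes that define tissue macrophages were low. C1qa, C1qb and C1qc, which encode the chains of complement C1q that macrophages secrete, had means of 0.905, 0.705 and 0.574 CPM per kb. C1qa had 75, 24 and 10 counts in WT and 9, 21 and 22 counts in CharmeKO, or 1.76, 0.913 and 1.08 CPM against 0.314, 0.859 and 0.724 CPM. All 3 WT libraries lay above the CharmeKO libraries, but WT 2 exceeded CharmeKO 2 by little, and the log2 fold change of −1.01 ± 0.56 (SE) did not pass the test (adjusted p = 0.489). The log2 fold changes of C1qb and C1qc were −0.44 and −0.64, and their groups overlapped.

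Csf1r, the receptor through which macrophages receive their survival factor, was at 2.23, 2.47 and 1.94 CPM in WT and at 0.559, 1.84 and 1.51 CPM in CharmeKO. The groups did not overlap, CharmeKO 1 was the lowest by far, and the log2 fold change was −0.78 ± 0.46 (SE, adjusted p = 0.513). Without CharmeKO 1, the log2 fold changes were −0.41 for Csf1r and −0.68 for C1qa, and without any 1 library they ran from −1.10 to −0.41 and from −1.28 to −0.64. C1qa and Csf1r are given in full because their groups did not overlap, a choice made after their values were seen.

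Itgax, the CD11c integrin chain of dendritic cells and some macrophages, had the largest fold change of the myeloid genes. Its counts were 20, 3 and 1 in WT and 26, 26 and 8 in CharmeKO, or 0.470, 0.114 and 0.108 CPM against 0.908, 1.06 and 0.263 CPM. WT 1 lay above CharmeKO 3, so that the groups overlapped, and the log2 fold change of 1.49 ± 0.82 (SE) had an adjusted p of 0.480.

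Itgam, which encodes CD11b and so one of the proteins that depletion reagents bind, had only 4, 4 and 0 counts in WT and 1, 0 and 2 counts in CharmeKO. At 0.012 CPM per kb it was the lowest of all 38 genes. In GENCODE's annotation of GRCm38, 68.7% of the exon bases of Itgam lie under exons of Gm49368 on the same strand, where a read cannot be given to 1 gene, and Gm49368 had 0 counts in all 6 libraries. Whether this overlap lowered the counts of Itgam was not tested. Over the unshared exon bases alone, Itgam would be at 0.0368 CPM per kb, still below Cd3g, the next lowest gene, at 0.0580. Aif1, a calcium-binding protein of macrophages, also failed the count filter, with 5, 2 and 3 counts in WT and 7, 0 and 5 counts in CharmeKO, and its groups overlapped.

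The remaining myeloid genes showed fold changes on both sides of 0. They were Adgre1, the F4/80 antigen, Mrc1, a mannose receptor, Cd163, the hemoglobin scavenger receptor, Cd14, a coreceptor for lipopolysaccharide, F13a1, the A chain of coagulation factor XIII, Fcer1g and Tyrobp, adaptors with an activation motif, and Mpeg1, a pore-forming protein of phagocytes. Their mean levels ran from 0.0821 CPM per kb for Cd163 to 2.08 CPM per kb for Fcer1g. Log2 fold changes lay between −0.18 for Tyrobp and 0.33 for Mpeg1, and none of the 8 had groups that did not overlap. Over the whole group, 7 of the 17 tested myeloid genes were positive and 10 were negative, with a median of −0.15.

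B cell genes, by contrast, lay above the C1q genes. All 3 were above each C1q gene in CPM per kb, at 12.7 for Cd79a, 4.60 for Cd79b and 1.54 for Ms4a1. That did not hold against all myeloid genes. Cd68 (5.23) lay above Cd79b and Ms4a1, and Lyz2 (4.58), Ctss (2.83), Fcer1g (2.08) and Cd14 (1.97) lay above Ms4a1. Cd79a, the signaling chain of the B cell receptor, had the highest level per kilobase of all 38 genes. It was at 22.8, 11.1 and 21.7 CPM in WT and at 19.6, 20.1 and 16.2 CPM in CharmeKO. WT 2 was again lowest, and the means of 18.5 ± 6.48 CPM in WT and 18.6 ± 2.12 CPM in CharmeKO (SD, n = 3) nearly coincided. The log2 fold change was 0.01 ± 0.23 (SE, adjusted p = 0.988), and the 95% interval of the fold ran from 0.706 to 1.44.

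Cd79b, its partner chain, was at 8.77, 2.51 and 10.5 CPM in WT and at 6.74, 6.22 and 4.67 CPM in CharmeKO. All CharmeKO libraries lay inside the WT range, and the log2 fold change was −0.28 ± 0.41 (SE, adjusted p = 0.829). Ms4a1, which encodes the B cell antigen CD20, was at 5.60, 2.36 and 4.95 CPM in WT and at 6.53, 5.97 and 3.09 CPM in CharmeKO. Its groups overlapped as well, with a log2 fold change of 0.28 ± 0.37 (SE, adjusted p = 0.811). Together the 3 B cell genes came to 29.9 ± 8.37 CPM (SD over 6 libraries), between 17.2% and 21.7% of the leukocyte sum in each library. The 19 myeloid genes together came to 34.6 ± 4.79 CPM.

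Further B cell genes outside the 38 were present in the same libraries. Pax5, the factor that fixes B cell identity, averaged 12.7 CPM, and Ighm, the heavy chain of immunoglobulin M, 57.5 CPM. Ebf1, a B cell factor that stromal cells also express, was the most abundant of the 10 genes in this list, at 148 CPM. None of the 10 was called by edgeR's quasi-likelihood test or by DESeq2, against 0.830% and 2.48% of all genes, 1 had an unadjusted p below 0.05, near the 12.8% of all genes, and 2 were positive and 8 negative. The gene with p below 0.05 was Jchain, which marks cells that secrete immunoglobulin, with 10, 35 and 3 counts in WT and 1, 0 and 4 counts in CharmeKO. In CPM its groups did not overlap (0.235, 1.33 and 0.323 against 0.0349, 0 and 0.132). The log2 fold change of −3.37 ± 1.13 (SE) had an unadjusted p of 0.0121 and an adjusted p of 0.255 in edgeR's quasi-likelihood test. Jchain passed the count filter only through its WT libraries, so its difference was in part a condition of being tested.

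T and NK cell genes were near the detection limit. Cd3e and Cd3g, which encode chains of the CD3 complex of T cells, had 19, 0 and 0 and 0, 1 and 0 counts in WT and 9, 3 and 0 and 3, 2 and 4 counts in CharmeKO. Nkg7, a protein of cytotoxic granules, had 0, 0 and 4 counts in WT and 4, 7 and 1 counts in CharmeKO. These 3 genes failed the count filter, and most of their values lay at or below 3 counts, where a presence cannot be told from a chance read. Trbc2, a constant region of the T cell receptor, had 18, 6 and 4 counts in WT and 29, 10 and 5 counts in CharmeKO, with groups that overlapped in CPM and a log2 fold change of 0.57 ± 0.81 (SE, adjusted p = 0.825).

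Gzma, the protease granzyme A of cytotoxic lymphocytes, had the largest fold change of the 38 genes. It had 1, 0 and 0 counts in WT and 10, 3 and 18 counts in CharmeKO, so that every CharmeKO library lay above every WT library. The pooled ratio of CharmeKO to WT per count sequenced was 29.0, with an exact 95% interval from 4.83 to 1182 that covers counting error only. In edgeR's quasi-likelihood test the unadjusted p was 0.00617 and the adjusted p was 0.195, and in DESeq2 the adjusted p was 0.156. Gzma passed the count filter only through its CharmeKO libraries, so its difference was in part a condition of being tested. The 5 T and NK cell genes summed to 0.893, 0.266 and 0.861 CPM in WT and to 1.92, 1.02 and 0.921 CPM in CharmeKO. These sums did not overlap, but they did without TMM scaling, and without Gzma they were 0.870, 0.266 and 0.861 CPM against 1.57, 0.900 and 0.329 CPM and overlapped. Prf1, perforin, and Gzmb, granzyme B, which act with granzyme A, averaged 0.267 and 0.229 CPM, and Prf1 was not called while Gzmb failed the count filter.

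The granulocyte genes S100a8 and S100a9, which encode the chains of calprotectin, were also rare, with between 0.205% and 1.40% of the leukocyte sum. S100a9 had 26, 5 and 4 counts in WT and 48, 25 and 5 counts in CharmeKO, and S100a8 had 13, 0 and 1 counts in WT and 16, 4 and 15 counts in CharmeKO. CharmeKO 1 was the highest library for both, CharmeKO 3 was the lowest for S100a9, and the groups overlapped. Their log2 fold changes of 1.18 ± 0.82 and 1.38 ± 1.05 (SE) had adjusted p-values of 0.593 and 0.632. Ly6g, the neutrophil antigen bound by Gr-1 antibodies, had 0 counts in all 6 libraries.

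The levels of several of these genes moved together from library to library. Correlations were computed on log2 normalized CPM after adding 1 CPM. Over the 6 libraries, the correlation with Ptprc was 0.97 for Coro1a, 0.95 for Ms4a1, 0.89 for Cd79a and 0.89 for Ctss. Further myeloid genes were also high, at 0.79 for F13a1, 0.78 for Mpeg1, 0.75 for Spi1, 0.75 for Lyz2 and 0.71 for Itgax. Others were low, at 0.08 for C1qa, −0.28 for Csf1r and −0.34 for Cd68. The median over the other 8 pan-leukocyte genes was 0.73 and over the 3 B cell genes 0.89, whereas over the 19 myeloid genes it was 0.30. Those 19 genes ranged widely, from −0.79 to 0.89. The correlation with C1qa was 0.85 for Cd68, 0.85 for C1qb and 0.82 for Csf1r. It was 0.32 for C1qc, −0.03 for Adgre1, −0.18 for Cd163, −0.44 for Mrc1 and −0.57 for Cd14. Several of these genes had few counts per library, 9 to 75 for C1qa, 1 to 34 for Adgre1 and 0 to 23 for Cd163. Whether the macrophage genes moved as 1 group cannot be told from correlations at such counts. These correlations are a description over n = 6 libraries, which share a depth and a scaling factor for all genes.

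Depth and scaling cancel in ratios within a library. Ratios to Ptprc were computed only for a chosen few genes. They were not computed for the myeloid genes Ctss, Mpeg1 and Spi1, whose correlations with Ptprc were 0.89, 0.78 and 0.75. The spans below therefore describe single genes and do not set myeloid genes apart from the others. Coro1a was between 1.89 and 2.49 times Ptprc in all 6 libraries, and Cd79a between 1.54 and 2.63 times. C1qa, on the other hand, ranged from 0.0309 of Ptprc in CharmeKO 1 to 0.198 in WT 2, a span of 6.41-fold, and Csf1r from 0.0550 in CharmeKO 1 to 0.537 in WT 2, a span of 9.77-fold. Those wide spans rest in part on CharmeKO 1, where C1qa had 9 counts, and without that library they were 3.01-fold and 3.81-fold. The spans of Cd79b (2.24-fold), Cd14 (2.81-fold), Lyz2 (2.85-fold) and Cd68 (3.12-fold) lay between those of Cd79a (1.71-fold) and C1qa. Counts of the 3 B cell genes were 6.16 to 24.1 times those of the 3 C1q genes, lowest in WT 2 and highest in CharmeKO 1.

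**Figure D4:**
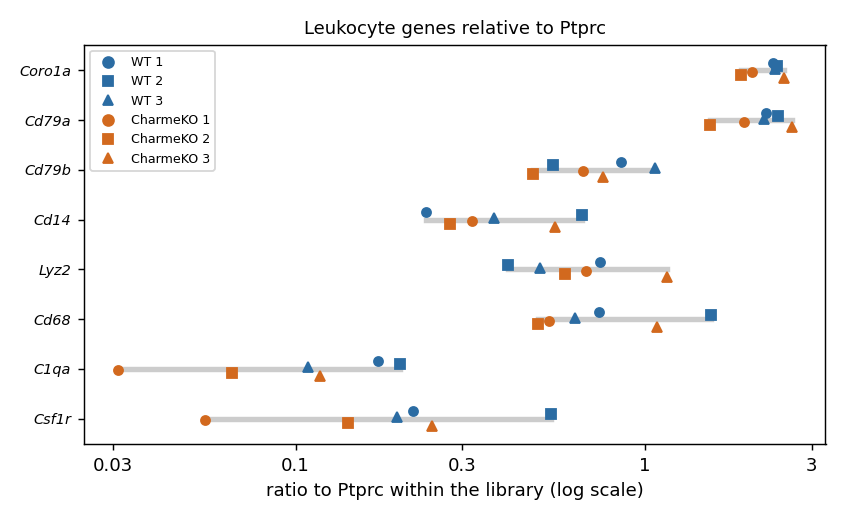
Ratio of 8 leukocyte genes to Ptprc within each library (log scale), with 1 point per library and grey bars from the lowest to the highest library. Coro1a and Cd79a keep a narrow range, 1.32-fold and 1.71-fold, and C1qa and Csf1r spread over 6.41-fold and 9.77-fold with CharmeKO 1 lowest and WT 2 highest. Without CharmeKO 1 these spans are 3.01-fold and 3.81-fold. The 8 genes were a choice among the leukocyte genes and do not stand for whole cell types.

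The 250 bases before the transcription start are shown for 5 of these genes. Coro1a and Cd79a are shown as the most abundant genes per kilobase, and Cd37, C1qc and S100a8 as the genes of 3 roles with a PU.1 motif in the 250 bases before the start. PU.1 was searched as GAGGAAGT, the octamer of B cell promoters as ATGCAAAT and the motif of EBF factors as CCCNNGGG, on both strands of windows from 250 bases before to 50 after each start. Capitals mark a match, read on the strand of the gene, so that a PU.1 match on the opposite strand appears as its reverse complement. The sequences are from RefSeq (GRCm38.p6), 5′ to 3′, and that of Coro1a belongs to the downstream one of its 2 starts.
Coro1a (chr7:126704221-126704470, minus strand): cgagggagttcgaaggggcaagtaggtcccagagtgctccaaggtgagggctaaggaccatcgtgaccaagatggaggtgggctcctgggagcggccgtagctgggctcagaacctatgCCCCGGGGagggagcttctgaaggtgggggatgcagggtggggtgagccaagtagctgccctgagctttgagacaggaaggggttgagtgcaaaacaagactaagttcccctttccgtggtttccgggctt
Cd79a (chr7:24897247-24897496, plus strand): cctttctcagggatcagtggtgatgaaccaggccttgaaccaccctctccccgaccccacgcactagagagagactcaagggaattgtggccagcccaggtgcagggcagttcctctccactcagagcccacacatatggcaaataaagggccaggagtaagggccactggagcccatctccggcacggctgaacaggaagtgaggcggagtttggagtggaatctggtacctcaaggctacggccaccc
Cd37 (chr7:45238840-45239089, minus strand): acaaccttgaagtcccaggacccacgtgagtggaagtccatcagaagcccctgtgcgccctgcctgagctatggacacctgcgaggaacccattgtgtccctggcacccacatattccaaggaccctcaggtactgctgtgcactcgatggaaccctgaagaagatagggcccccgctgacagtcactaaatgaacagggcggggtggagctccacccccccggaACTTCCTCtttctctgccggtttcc
C1qc (chr4:136892915-136893164, minus strand): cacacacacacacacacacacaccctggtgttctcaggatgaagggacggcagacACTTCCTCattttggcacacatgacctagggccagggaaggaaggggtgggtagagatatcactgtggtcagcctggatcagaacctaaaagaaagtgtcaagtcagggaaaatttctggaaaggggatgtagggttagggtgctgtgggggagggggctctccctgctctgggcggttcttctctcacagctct
S100a8 (chr3:90668821-90669070, plus strand): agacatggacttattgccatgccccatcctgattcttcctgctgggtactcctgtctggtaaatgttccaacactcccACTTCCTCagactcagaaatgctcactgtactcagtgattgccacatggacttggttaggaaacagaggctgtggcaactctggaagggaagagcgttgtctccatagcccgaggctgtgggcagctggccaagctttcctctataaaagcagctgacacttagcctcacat

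RefSeq windows were at hand for 26 of the 38 genes, 29 windows in all. The PU.1 letters occurred in 6 of the 29 windows (20.7%), of Cd53, Cd37, C1qc, F13a1, Ctss and S100a8, and in 3.20% of 32851 windows of all genes. The match began 25 bases before the start in Cd37, 195 before in C1qc and 172 before in S100a8. EBF letters occurred in 3 windows (10.3%), of Laptm5, Coro1a and Cd53, and in 13.7% of all windows, and the octamer in 0 windows, against 1.74% of all. Cd53 is the only one of these genes with letters of both PU.1 and EBF. A match is a run of letters and not a measured binding site. The windows of Cd79a and of most other genes held none of the 3 motifs in these exact letters. Sites with variant letters were not searched, so the lack of a match does not show the lack of a site.

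None of 10 transcription factors chosen for a link to PU.1 passed the test. The list includes Cebpa, Cebpb, Irf8, Irf5, Runx1, Ikzf1, Gfi1 and Klf4. All 10 were tested and 0 were called by edgeR's quasi-likelihood test or DESeq2, against 0.830% and 2.48% of all genes. Cebpb was the 1 gene of 10 with an unadjusted p below 0.05, where 12.8% of all genes were, and 2 of the 10 were positive and 8 negative. Klf4 and Cebpb are active in many cell types besides leukocytes.

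Other leukocyte genes were not called either. Of 87 further genes of macrophages, dendritic cells, neutrophils, B cells, T and NK cells, mast cells with basophils, and platelets, 49 could be tested and 0 were called by edgeR's quasi-likelihood test or DESeq2. At an unadjusted p below 0.05 there were 6 (12.2%), near the 12.8% of all genes, and the median log2 fold change of the 49 was −0.0038. By mean level, the most abundant gene was Zbtb46 at 60.3 CPM for dendritic cells, Csf3r at 0.494 for neutrophils, Ebf1 for B cells, Cd247 at 4.37 for T and NK cells, Kit at 36.0 for mast cells and Itga2b at 16.8 for platelets. Some of these, such as Zbtb46 and Kit, are expressed outside leukocytes too. In 13 of the 22 macrophage genes, among them Folr2, Timd4, Cx3cr1 and Vsig4, the counts were too low for a test.

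Among the proteins bound by depletion antibodies, Cd5 had 12, 3 and 0 counts in WT and 9, 7 and 14 counts in CharmeKO. In CPM these were 0.282, 0.114 and 0 against 0.314, 0.286 and 0.461, so that the groups did not overlap, but the log2 fold change of 1.11 ± 0.91 (SE) did not pass edgeR's quasi-likelihood test (adjusted p = 0.668). Cd5 was the 1 of 4 tested genes of its list with such groups, where 18.2% of all genes had them. Ly6c1, which capillary endothelium also expresses, averaged 756 CPM, whereas Ly6c2, the form of monocytes, averaged 0.359 CPM. Of the 6 genes in this list, with Ptprc, Itgam and Ly6g, 4 were tested and 0 were called by edgeR's quasi-likelihood test or DESeq2 (0.830% and 2.48% of all genes), with 0 at an unadjusted p below 0.05 (12.8% of all genes).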

How the data were processed

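Poly(A) mRNA of native CFs from 3 WT and 3 CharmeKO samples was sequenced in strand-directional libraries. The authors aligned filtered reads with STAR to GRCm39 and counted them per gene, in the reverse strand configuration, on an Ensembl annotation to which Charme was added. The deposited values are these raw counts, without normalization or gene filter, and a read that falls on 2 genes is not counted.

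The 38 genes, the role groups and all other lists were chosen with earlier results of these data known. All 38 are named. Values in every library are given for Ptprc, Itgam and Spi1, for the 3 most abundant genes per kb of each role, for the largest fold change of each role and for genes below the count filter. Of each further leukocyte list, the most abundant gene is named, except that of macrophages, which is not reported here, and other genes were picked after their values were seen.

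The count filter (10 counts or more in 2 or more libraries) left 15789 genes. Counts were scaled by TMM, and CharmeKO was set against WT in edgeR 4.0.16 (R 4.3.3) by its quasi-likelihood test, with Benjamini-Hochberg adjustment over all tested genes. DESeq2 1.42.0 was an alternative. On simulated data the test recovered 0 of 196 genes changed by 0.5 on the log2 scale, 100 of 191 changed by 1 and 185 of 195 changed by 1.5. Recovery was not tested for the leukocyte genes alone. Their median level was 1.86 CPM, against 14.4 over all tested genes, and their median SE was 0.42, against 0.18. Exon lengths of protein-coding transcripts and overlaps of exons came from a GENCODE annotation of GRCm38, another build than that of the counts. Near-identical transcripts were searched with blastn, at 97% identity over at least 50% of a transcript, which found Gm49368 for Itgam and no other pair. No library duplicated another of its own group.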

Additional observations from a re-analysis of the deposited data

How the results depend on the processing

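No leukocyte gene of the 38 was called under any alternative: DESeq2, its size factors in edgeR, upper-quartile scaling, no gene filter, filterByExpr, the replicate block, hemoglobin genes left out, each library left out, or a term, chosen after seeing the data, for the 3 libraries with more than 1000 Xist counts. The lowest adjusted p over these settings ran from 0.134 (Laptm5, without WT 2) to 0.676. Counts over all genes moved more, from 131 to 391 with DESeq2, 699 without a gene filter and 302 with the replicate block, and to between 61 and 349 when a library was left out, 349 without WT 2. Without a gene filter, 3 genes of the further blood cell lists were called, Plek, the platelet gene Ppbp and Lyve1, which endothelium also expresses. All 3 were higher in CharmeKO, with log2 fold changes of 0.64, 1.45 and 0.53. Their adjusted p-values by edgeR's quasi-likelihood test were 0.0489, 9.32e-06 and 0.0290, against 0.353, 0.297 and 0.181 with the filter. The cause was not tested. With 1 library left out, the log2 fold changes of 15 genes changed sign, and ran from −0.052 to 0.50 for Ptprc, −0.46 to 0.033 for Laptm5, −0.23 to 0.27 for Coro1a, −0.23 to 0.43 for Cd52, −0.022 to 0.55 for Cd48, −0.035 to 1.05 for Itgb2, −0.26 to 0.53 for Adgre1, −0.57 to 1.15 for Cd163, −0.56 to 0.18 for F13a1, −0.29 to 0.24 for Fcer1g, −0.54 to 0.044 for Tyrobp, −0.26 to 0.22 for Cd79a, −0.71 to 0.042 for Cd79b, −0.036 to 0.56 for Ms4a1, −0.32 to 1.00 for Trbc2. With the replicate block Cd163 was at 0.33, and with the Xist term Coro1a was at −0.10, Cd52 at −0.014, Adgre1 at −0.44, Cd163 at 0.0075 and Cd79a at −0.095. The Xist term set WT 1, CharmeKO 1 and CharmeKO 2 apart from the rest, a split that was uneven between the genotypes.

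The replicate numbers are shared by the groups, but the labels do not say that a number marks a pair. Deviations of same-numbered libraries correlated at 0.22, 0.05 and 0.16, each the highest of its library, which is a hint from the data and not from the design. Among the leukocyte genes the replicate block gave a median log2 fold change of 0.19 and 0 calls.

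Depth limits 15 genes most, which stayed under 50 counts in every library: Cd48, Adgre1, C1qc, Cd163, Tyrobp, Itgam, Itgax, Aif1, the 5 T and NK cell genes and both granulocyte genes.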
